A study of Mus musculus with 8 samples.

Results

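Total RNA was set against nascent RNA, gene by gene, in the livers of fasted mice given vehicle, to describe which liver genes carried much or little RNA for the level of their ongoing transcription. Of 25124 rows in the authors' expression table, 10632 genes were ranked. They have a row of at least 300 bases and a mean of at least 0.5 RPKM (reads scaled to the length of the row and to the library total) over the 3 libraries used. A gene low in 1 assay could thus pass through its level in the other. Of the other rows, 1352 were shorter than 300 bases and 13140 had a lower mean. The mean of the ranked gene nearest the limit was 0.5 RPKM, and that of the nearest gene left out was 0.499667 RPKM.

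Nascent RNA is RNA still being made by RNA polymerase. Global run-on sequencing (GRO-seq) measures it in isolated nuclei, where polymerases already on a gene extend their transcripts with a bromine-tagged nucleotide and the tagged RNA is captured. The total RNA of a tissue also holds finished transcripts, which build up or drain away according to how fast they are processed and degraded. A long-lived messenger RNA can therefore be abundant with little transcription, and a short-lived one scarce with much. RNA that is cut out of a transcript, such as an intron, is counted in nascent RNA and then largely destroyed, except for parts that are kept, among them the small nucleolar RNAs that guide chemical changes in ribosomal RNA.

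Total RNA came from C57BL/6 mice fasted overnight and treated for 1 h with vehicle, named DMSO in the labels. There were 2 RNA-seq libraries, each pooling liver RNA of 2 mice, made after removal of ribosomal RNA. Nascent RNA came from other mice, in 1 GRO-seq library labelled wild type (WT), for which the study's methods used mice with a floxed Fxr gene and no Cre. A vehicle GRO-seq library of FXR knockout (KO) livers, in which Cre is driven by the albumin promoter and acts in hepatocytes, served only as another nascent library. A second set from livers treated for 1 h with GW4064, an agonist of the bile acid receptor FXR, at 30 mg/kg had 2 RNA-seq libraries and 1 WT GRO-seq library and shared no library with the vehicle set.

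The rebuilt library totals were 13931973 and 14047079 reads for total RNA and 14173703 reads for nascent RNA in vehicle livers. The total RNA figures are below the mapped reads that the study lists. Whether the authors' counting left out repeated reads was not tested, so read counts and counting intervals refer only to the reads behind the RPKM values. The median ranked gene had 556 and 565 reads in total RNA and 385 reads in nascent RNA. Each gene was given a percentile rank in each assay, and the rank difference is the rank in total RNA minus the rank in nascent RNA, in percentile points. A gene was counted as higher or lower in total RNA where the difference reached 25 points in that direction with each RNA-seq library taken alone. The study's legend gives replicate mice for GRO-seq, and how they relate to the library is not given in the sources used here. With 1 nascent library per condition in the data used here, no test was possible and no p-value is given. Assay, mice and library preparation differ together between total and nascent RNA and cannot be told apart. In whole liver, fewer cells of a type and less RNA per cell cannot be told apart either.

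Ranks in total and nascent RNA followed each other over most genes. Spearman's coefficient across the 10632 genes was 0.846, against 0.988 between the 2 total RNA libraries and 0.944 between the vehicle GRO-seq libraries of KO and WT livers. These coefficients describe genes, which are not independent replicates. The median level was 2.13 RPKM in total RNA and 1.48 RPKM in nascent RNA, and the median ratio of total to nascent RNA was 1.35. The rank difference had a median size of 9.33 points and ran from -82.2 to 86.7 points. Between the 2 total RNA libraries the rank of a gene moved by a median of 1.92 points, with a 95th percentile of 9.06 points, and between the vehicle GRO-seq libraries of KO and WT livers by a median of 4.23 points.

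By this rule 629 genes (5.92%) were higher in total RNA and 295 genes (2.77%) lower, and a further 204 genes passed 25 points in the mean but not with both libraries. On the ratio scale, with 0.1 RPKM added to both assays and the ratio centred on its median, 75 genes (0.705%) lay 4-fold or more above the median and 59 genes (0.555%) 4-fold or more below it. Ratio and rank do not weigh genes alike. Abundant genes have little room to move in rank, and the median centred log2 ratio was 0.53 in the lowest of 10 equal classes of nascent level and -0.38 in the highest. How much of that slope comes from choosing genes by the same nascent value was not tested.

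**Figure D1:**
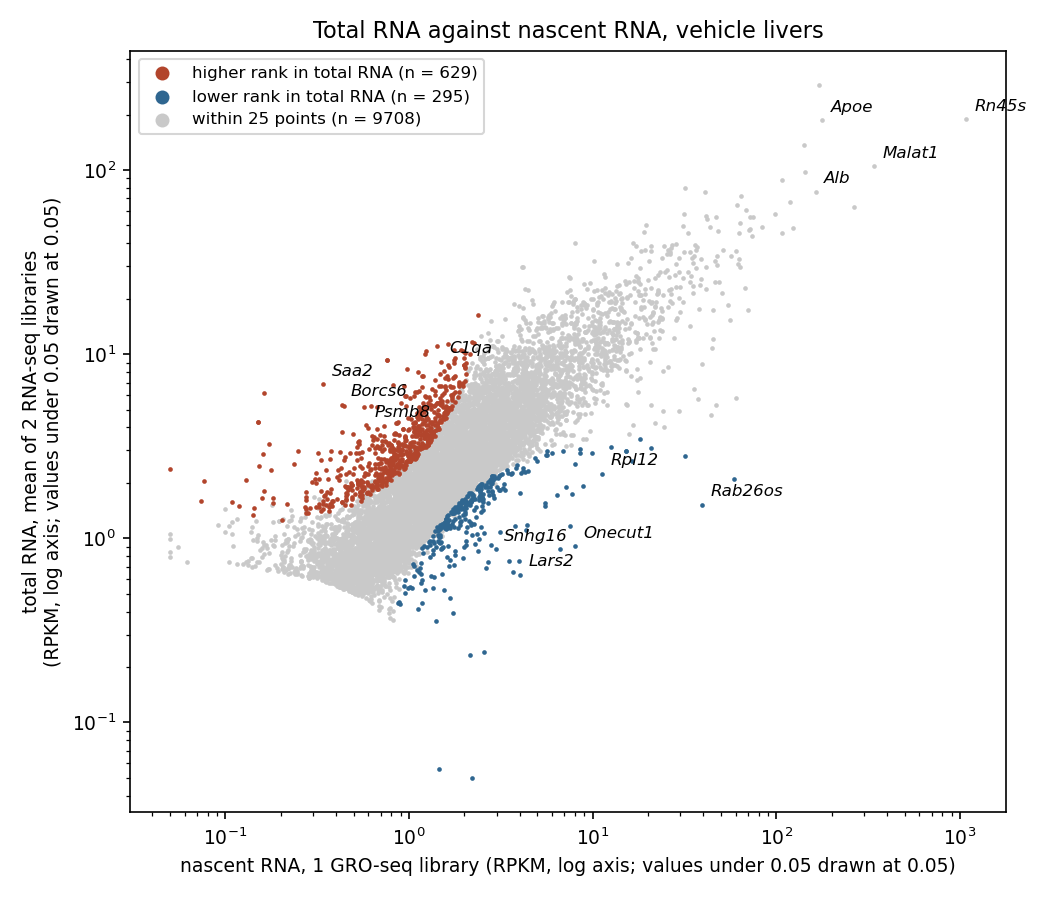
Level of each of the 10632 ranked genes in total RNA (vertical axis, mean of 2 RNA-seq libraries) against nascent RNA (horizontal axis, 1 GRO-seq library), both in RPKM on log axes, with values under 0.05 drawn at 0.05. The 629 genes with a higher rank in total RNA lie above the cloud, mostly at low nascent levels, and the 295 with a lower rank lie below it.

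The genes furthest above their nascent rank were mostly short and barely transcribed at the time of sampling. Saa2, which encodes the acute phase protein serum amyloid A2, had 10.4 and 3.27 RPKM in total RNA against 0.341 RPKM (12 reads) in nascent RNA. Its rank difference was 86.3 points in the mean, 91.8 with library 1 and 66.1 with library 2, so both libraries stood far above nascent RNA although they differed from each other. Mtln, which encodes a micropeptide of mitochondria, had 4.97 and 5.45 RPKM in total RNA against 0.445 RPKM in nascent RNA, a difference of 77.3 points. Aldh1b1, a mitochondrial aldehyde dehydrogenase, had 4.86 and 5.49 RPKM against 0.568 RPKM in nascent RNA, or 71.7 points. In each of these genes, which were chosen for their large differences in the same values, both total RNA values lay above the 95% counting interval of the nascent value.

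The others of the 15 largest differences had varied functions. The chemokine gene Ccl9 stood at 4.72 and 5.76 RPKM in total RNA and 0.617 RPKM in nascent RNA. Psmb8, a subunit of the immunoproteasome, which cuts peptides for antigen presentation, stood at 3.99 and 4.24 RPKM in total RNA against 0.585 RPKM in nascent RNA (27 reads, counting interval 0.385 to 0.850 RPKM). Slc39a4, a zinc importer, had 8.65 and 8.0 RPKM in total RNA and 0.975 RPKM in nascent RNA. Sdf2l1, a chaperone component of the endoplasmic reticulum, had 7.13 and 6.47 RPKM in total RNA and 0.817 RPKM in nascent RNA. The set was completed by Borcs6, Tceal8, Hist1h4k, Mocs3, P2ry4, Smim26, Tlr12 and Ghdc, with rank differences from 60.6 points for Ghdc to 78.3 points for Borcs6. Reads were few on the nascent side, down to 1 read for the histone gene Hist1h4k.

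Genes far below their nascent rank were of several kinds. Lars2, the leucyl-tRNA synthetase of mitochondria, had 0.650 and 0.619 RPKM in total RNA against 4.01 RPKM in nascent RNA, a difference of -82.2 points that rests on 5446 nascent reads. The difference of Lars2 was -89.0 points in GW4064 livers. Snhg11 and Snhg15, host transcripts of small nucleolar RNAs, lay at -74.7 and -52.6 points. Rab26os, an antisense transcript row of 493 bases, had 1.46 and 1.59 RPKM in total RNA against 39.5 RPKM in nascent RNA. Esp38, whose name marks an exocrine gland secreted peptide gene, was listed at 0 in both total RNA libraries and had 149 nascent reads (2.21 RPKM). It passed the filter on low values only through its nascent level.

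Several genes of this end depended on the single vehicle GRO-seq library. Onecut1, a transcription factor of the hepatocyte lineage, had 0.893 and 0.924 RPKM in total RNA against 8.01 RPKM in nascent RNA, or -80.4 points. In GW4064 livers Onecut1 had 0.507 RPKM in nascent RNA and a difference of +11.3 points, and with the KO vehicle library, at 0.975 RPKM, its difference was -20.8 points. Cish, a feedback inhibitor of cytokine and growth hormone signalling, lay at 3.88 points in GW4064 livers and -21.7 points with the KO vehicle library, against -59.9 points with the WT vehicle library. Smad9, a signal transducer of bone morphogenetic proteins, lay at 11.9 points in GW4064 livers and -3.70 points with the KO vehicle library, against -51.2 points with the WT vehicle library. The vehicle differences of these 3 genes thus depend on which GRO-seq library is taken as nascent RNA.

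**Figure D2:**
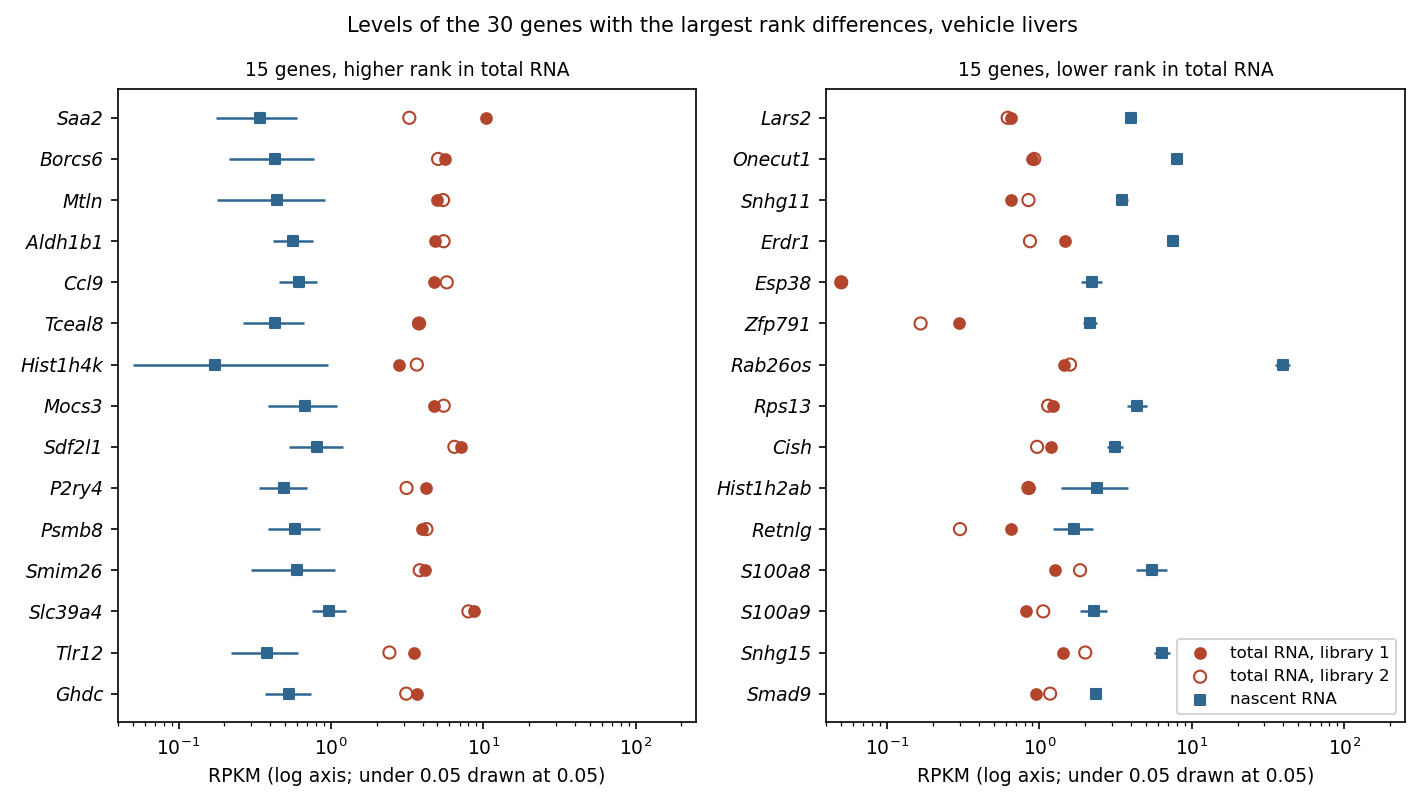
Levels in RPKM (horizontal log axis) of 15 genes higher and 15 genes lower in total RNA, those with the widest rank differences once clone names, predicted genes and overlapping rows were left out. Circles are the 2 total RNA libraries and squares the nascent RNA library, whose horizontal bars are 95% counting intervals. Psmb8 stood at 3.99 and 4.24 RPKM in total RNA against 0.585 in nascent RNA, and Rab26os at 1.46 and 1.59 RPKM against 39.5. That both circles lie on one side of the square in all 30 genes follows largely from choosing genes called with each library.

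Host genes of small nucleolar RNAs carried little total RNA for their nascent RNA. Of 79 ranked genes that hold rows of small nucleolar or Cajal body RNAs on their own strand, 20 (25.3%) were lower in total RNA and none was higher, against 2.77% and 5.92% of all ranked genes. Genes high in nascent RNA have little room for a higher call. The 80 ranked genes whose row overlaps a small nucleolar RNA row had a median nascent rank of 94.3 points. In the highest of 10 equal classes of nascent level no gene was higher and 2.63% were lower. Small nucleolar RNAs of the H/ACA class end in an ACA box and guide pseudouridylation, and those of the C/D class carry a C box and a D box and guide methylation of ribose. The small nucleolar RNAs of 4 hosts are shown because a share of the hosts' nascent reads fell in their rows. The sequences are from GENCODE M21 on mm10, read 5′ to 3′ on the strand of the host, with the ACA box in capitals in the first 3 and the TGATGA and CTGA of the C and D boxes in capitals in the last. They lie in Rpl12 at chr2:32963291-32963420 (plus strand), in Rpl39 at chrX:37082912-37083042 (minus strand), in Tpt1 at chr14:75847905-75848034 (plus strand) and in Zfas1 at chr2:167065276-167065365 (plus strand). The rows in which reads were counted lie within these spans, at 32963301 to 32963418, 37082912 to 37083033, 75847923 to 75848034 and 167065293 to 167065358, and the C box of Snord12 lies before the start of its row.
Snora65: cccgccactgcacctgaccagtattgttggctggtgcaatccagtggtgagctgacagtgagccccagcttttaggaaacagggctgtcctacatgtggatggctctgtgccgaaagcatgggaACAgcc
Snora69: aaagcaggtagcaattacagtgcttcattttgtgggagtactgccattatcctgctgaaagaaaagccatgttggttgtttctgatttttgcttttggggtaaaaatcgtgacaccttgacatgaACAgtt
Snora31: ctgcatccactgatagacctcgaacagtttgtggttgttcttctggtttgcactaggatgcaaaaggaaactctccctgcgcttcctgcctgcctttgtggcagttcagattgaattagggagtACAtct
Snord12: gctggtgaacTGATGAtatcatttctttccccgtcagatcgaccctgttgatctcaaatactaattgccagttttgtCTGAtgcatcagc

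In Rpl12, a protein of the large ribosomal subunit, the Snora65 row held 8 of 78 reads (10.3%) and 11 of 68 reads (16.2%) in total RNA, against 330 of 372 reads (88.7%) in nascent RNA. The rank difference of Rpl12 was 3.16 points without those reads and -43.9 points with them. In Rpl39, the Snora69 row held 2 of 64 reads (3.13%) and 4 of 67 reads (5.97%) in total RNA, against 225 of 296 reads (76.0%) in nascent RNA, and the difference of Rpl39 was -53.9 points with these reads and -22.8 points without them. In Tpt1, which encodes the translationally controlled tumour protein, small RNA rows held 7 of 141 and 8 of 126 reads in total RNA against 387 of 542 reads (71.4%) in nascent RNA. Tpt1 lay at -29.8 points with them and -18.0 points without them.

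Not every host moved toward 0 without these reads. Rpl17, another protein of the large subunit, lay at -47.6 points without them and -50.1 points with them, and Rps12, of the small subunit, at -33.2 and -31.7 points. Among hosts that encode no protein, in Snhg16 the small RNA rows held 3 of 53 and 2 of 48 reads in total RNA and 133 of 174 reads (76.4%) in nascent RNA, and its difference was -65.6 points with these reads and -6.53 points without them. Zfas1, in which Snord12 lies, had 4 of 98 and 2 of 116 reads in small RNA rows in total RNA against 266 of 679 reads (39.2%) in nascent RNA, and stayed at -36.8 points without them, close to its -38.5 points with them. Dancr lay at -48.6 points without the small RNA reads and -36.7 points with them. GENCODE places other small nucleolar RNAs, whose reads were not removed, in Rpl17 (Gm23301 and Gm26202), Rps12 (Gm23130) and Zfas1 (Gm23201 and Gm25878). How much these reads hold the differences of such hosts away from 0 was not tested.

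Over all 79 hosts the median share of a gene's reads in small RNA rows was 1.34% and 1.24% in the total RNA libraries against 24.5% in nascent RNA, while these rows took a median of 2.19% of the length of the gene. The nascent share was above both total RNA shares in 72 of the 79 hosts. In GW4064 livers the medians were 1.42% and 1.46% in total RNA and 27.0% in nascent RNA. The median rank difference of the hosts was -16.7 points with the small RNA reads and -11.9 points without them. Of the 20 hosts that were lower, 10 remained lower without these reads and 1, Rpl12, lay above 0, and 13 of the 79 hosts were lower in all. Some of the 10, among them Rpl17, Rps12, Zfas1, Nop58, 2410002F23Rik and 1110038B12Rik, hold other GENCODE small nucleolar RNAs whose reads remained.

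The small RNAs themselves lie in rows of 21 to 274 bases and were therefore not ranked. Of 119 such rows, 103 had a nascent level above both total RNA libraries and 6 a level below both. Their median was 3.31 and 3.34 RPKM in total RNA against 101 RPKM in nascent RNA. Whether library preparation recovered RNAs of this length to the same extent in both assays was not tested. A GENCODE small nucleolar RNA lay inside, and on the strand of, 37 of the 295 genes lower in total RNA (12.5%), none of the 629 genes higher and 223 of all 10632 genes (2.10%). Genes called higher had a median nascent rank of 27.1 points, and a gene near the top of that ranking cannot be called higher. Among genes under 10000 bases the share was 26 of 124 lower genes, none of 516 higher genes and 2.34% of all 3548. Beyond the table's own small RNA rows, Rps16 holds AF357399, Rab26os holds Snord60, Rps13 holds Snord14a and Snhg15 holds Snora9.

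**Figure D3:**
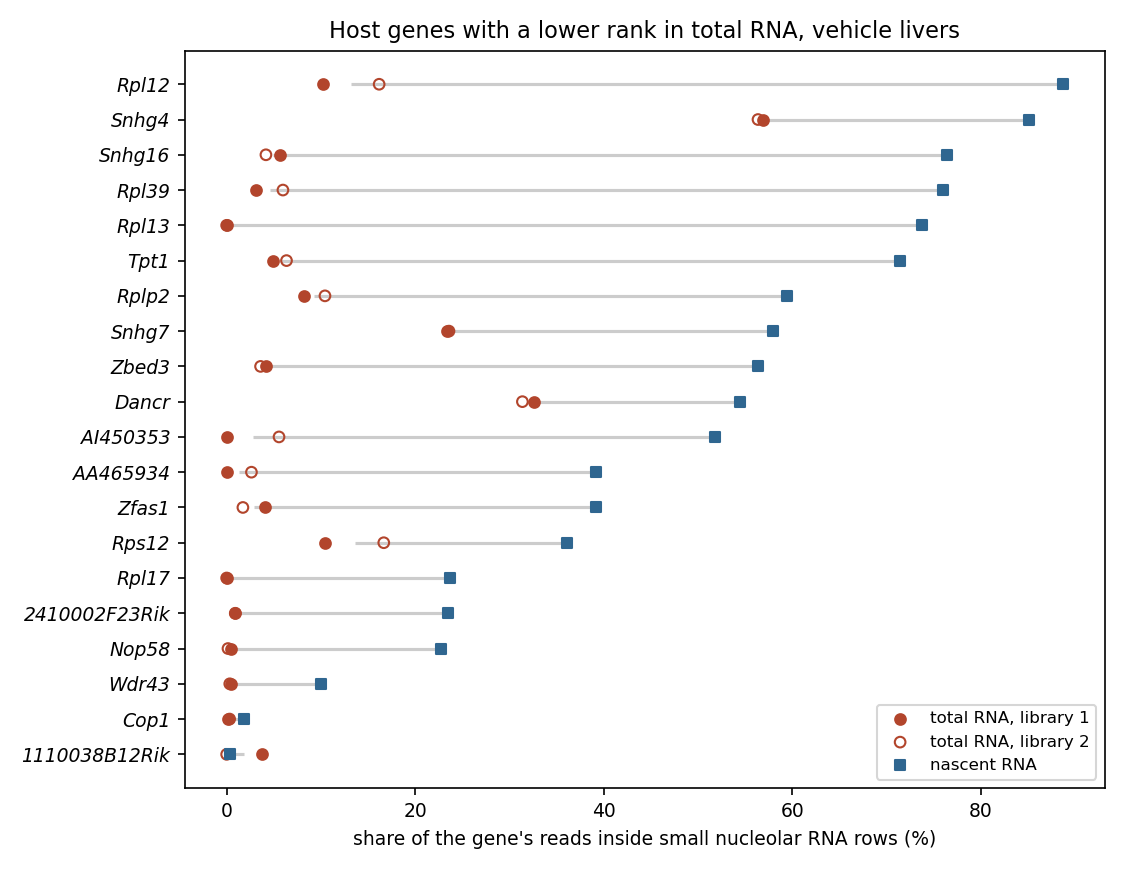
Share of a host gene's reads that lies inside its small nucleolar RNA rows, in percent, for the 20 hosts with a lower rank in total RNA. Circles are the 2 total RNA libraries, squares are nascent RNA and grey lines join the mean of the circles to the square. Rpl12 is at 10.3% and 16.2% in total RNA and 88.7% in nascent RNA, and the last row, 1110038B12Rik, is the one host whose nascent share does not lie above both circles.

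Cytosolic ribosomal protein genes, whose messenger RNAs are among the most stable and most translated of a cell, differed according to whether they hold such rows. All 83 were ranked, 1 was higher and 14 lower in total RNA, and their median was -4.28 points. The 23 genes whose row overlaps a small nucleolar RNA row had a median of -16.7 points with 6 (26.1%) lower and none above 0. In these 23 genes small RNA rows held a median of 3.34% and 3.59% of the reads in total RNA against 53.8% in nascent RNA, and without those reads their median was -9.82 points with 2 lower. These 2, Rpl17 and Rps12, hold other GENCODE small nucleolar RNAs whose reads remained. The 60 other ribosomal protein genes had a median of 2.93 points with 1 (1.67%) higher and 8 (13.3%) lower. A GENCODE small nucleolar RNA that does not count as a small RNA row here lies in 8 of the 60, and 5 of these (Rps16, Rps13, Rpl30, Rpl6 and Rpl21) were lower. Among the 60, Rps16 had 0.822 and 0.921 RPKM in total RNA against 6.64 RPKM in nascent RNA (-79.9 points), and Rpl18 had 3.14 and 3.27 RPKM in total RNA against 0.944 RPKM in nascent RNA (39.1 points). Compared with genes of like length, for which ranks were taken within 10 length classes, none of the 83 was higher and 28 were lower, with a median of -12.0 points. Within these classes 2.96% of all genes were higher and 3.08% lower.

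Ribosomal proteins of mitochondria lay on the other side. Of 75 ranked genes 15 (20%) were higher and none lower in total RNA, beside 5.92% and 2.77% of all ranked genes. Of the 75, 60 lay above 0, and the median was 8.74 points. Mrpl54 had 6.22 and 5.65 RPKM in total RNA against 0.960 RPKM in nascent RNA (56.5 points), and Mrps30 had 3.27 and 3.36 RPKM against 0.869 RPKM (43.6 points). Within length classes 5 of the 75 were higher and none lower, against 2.96% and 3.08% of all genes, with a median of 3.86 points. The 77 nuclear subunits of oxidative phosphorylation had a median of 1.34 points with 1 higher, the 34 proteasome subunits one of 1.25 points with 3 higher and 1 lower, and the 35 translation factors one of 0.52 points with 1 higher and 2 lower.

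Marker genes of Kupffer cells, the macrophages of the liver sinusoids, lay above their nascent rank in total RNA, but to unequal extents. Of 13 ranked markers 8 (61.5%, against 5.92% of all ranked genes) were higher and none lower, all 13 lay above 0, and their median was 37.4 points. In GW4064 livers 4 of the 13 were higher with a median of 22.1 points, and with the KO vehicle library the median was 17.6 points. Within length classes, where 2.96% of all genes were higher, 7 of the 13 were higher and none lower. C1qa, a chain of the complement component C1q, had 9.71 and 8.48 RPKM in total RNA against 1.49 RPKM in nascent RNA (42.6 points). Lyz2, the lysozyme of macrophages, had 5.05 and 5.21 RPKM in total RNA against 1.13 RPKM in nascent RNA (45.5 points), and Csf1r, the receptor that macrophages need for survival, had 2.75 and 2.57 RPKM against 0.784 RPKM (38.7 points). Clec4f, a lectin restricted to Kupffer cells in the mouse, differed less, at 6.53 and 6.21 RPKM in total RNA and 2.60 RPKM in nascent RNA (13.7 points). Also not called were Fcer1g at 2.40 points, Vsig4 at 5.81, Timd4 at 6.51 and Ctss at 16.4. The list thus did not move as a whole, and whether the called members are particular to Kupffer cells was not tested. Summed over the ranked markers the level was 52.8 and 49.7 RPKM in total RNA and 13.8 RPKM in nascent RNA, and the macrophage markers Marco and Adgre1 were below the filter on low values.

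The other cell type markers varied. The 15 ranked markers of sinusoidal endothelial cells had a median of 2.41 points and the 13 of stellate cells one of 9.34 points, with none past 25 points with both libraries in either list. Summed levels were 55.4 and 55.6 RPKM in total RNA against 33.3 RPKM in nascent RNA for endothelial markers, and 22.5 and 21.1 RPKM against 13.9 RPKM for stellate markers. Of 8 ranked markers of other blood cells 3 (37.5%) were higher and 2 (25%) lower, beside 5.92% and 2.77% of all ranked genes, with a median of 28.7 points. Only 3 of 9 cholangiocyte markers were ranked.

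Genes of the interferon response and of antigen presentation, a list added after the values had been seen, mostly lay above their nascent rank. Because the list was chosen on these values, its shares are a description only. It shares H2-Aa with the markers of other blood cells. Its median nascent rank was 24.4 points, which leaves little room for a lower call. Of 49 ranked genes 26 (53.1%, against 5.92% of all ranked genes) were higher and none lower in total RNA, 45 lay above 0, and the median was 28.4 points. Isg15, a ubiquitin-like protein induced by interferon, had 2.57 and 2.09 RPKM in total RNA against 0.354 RPKM in nascent RNA (7 reads, 51.2 points). Irf7, a transcription factor of the interferon response, had 8.08 and 7.56 RPKM in total RNA against 1.48 RPKM in nascent RNA (41.2 points), and H2-Aa, a chain of the class II antigen-presenting molecule, had 4.58 and 3.24 RPKM against 0.667 RPKM (59.1 points). Within length classes 18 of the 49 were higher, against 2.96% of all genes, and none lower. In GW4064 livers the median of the list was 25.9 points with 23 higher, and with the KO vehicle library it was 18.5 points.

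Genes of neutrophil granules, also listed after the values had been seen, went the opposite way in the few that were ranked. Of 5 ranked genes 3 (60%, beside 2.77% of all ranked genes) were lower in total RNA, and 9 of the 14 listed genes were not ranked. Because the list was chosen on these values, its share is a description only. S100a8, which with S100a9 forms calprotectin, had 1.27 and 1.85 RPKM in total RNA against 5.50 RPKM in nascent RNA (-55.7 points). S100a9 had 0.813 and 1.06 RPKM in total RNA against 2.28 RPKM in nascent RNA (-54.4 points), and Retnlg 0.646 and 0.301 RPKM against 1.68 RPKM (-56.1 points). Retnlg passed the filter on low values only through its nascent level. With the KO vehicle library as nascent RNA, where S100a8 had 1.41 RPKM and S100a9 0.566 RPKM, the differences were -16.2 points for S100a8 and +1.09 points for S100a9.

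Haemoglobin genes are expressed in red cell precursors, and their RNA remains in young red cells, which have no nucleus. Hba-a1 had 29.5 and 30.1 RPKM in total RNA against 4.16 RPKM in nascent RNA, a centred log2 ratio of 2.38 but only 12.8 points, since the gene is near the top of both rankings. Hbb-bs had 22.2 and 22.5 RPKM in total RNA against 4.42 RPKM in nascent RNA. Hbb-bt, whose row has the same coordinates and values as that of Hbb-b2, had 9.90 and 8.65 RPKM in total RNA against 0.756 RPKM in nascent RNA (72.9 points). Of 10 ranked red cell genes 2 (20%, beside 5.92% of all ranked genes), this pair, were higher and none lower. Alas2, the first enzyme of haem synthesis in red cells, had 4.87 and 5.07 RPKM in total RNA and 3.45 RPKM in nascent RNA, a difference of -0.58 points.

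The most transcribed genes of the hepatocyte lay near the top of both rankings, where little room is left for a rank difference. Alb, which encodes serum albumin, had 74.8 and 77.4 RPKM in total RNA against 164 RPKM in nascent RNA, and its rank difference was -0.04 points. Apoa1, the main protein of high-density lipoprotein, had 136 and 139 RPKM against 142 RPKM in nascent RNA, and Hnf4a, a nuclear receptor that defines hepatocytes, had 22.4 and 19.98 RPKM against 26.8 RPKM. The 10 hepatocyte markers examined lay within 1.03 points of 0, and none was absent. Of 69 plasma protein genes none was higher or lower, with a median of -0.11 points, and the 14 ranked apolipoprotein genes likewise had none and a median of 0.06 points. On the ratio scale these genes lay below the median gene, with centred log2 ratios of -1.53 for Alb, -0.99 for Apoa2, which encodes another apolipoprotein, and -0.48 for Apoa1. The densest row was Rpph1 in total RNA, at 4.003 and 4.05 reads per base, and the ribosomal RNA row Rn45s in nascent RNA, at 15.4. These are different rows, and ribosomal RNA was removed from the total RNA, so the figures do not compare like with like. Whether the authors' processing set a ceiling on dense rows in total RNA was not tested.

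An exception among the apolipoproteins was Apoa4, which is secreted on triglyceride-rich particles and varies with feeding. It had 40.2 and 40.3 RPKM in total RNA against 8.02 RPKM in nascent RNA, a centred log2 ratio of 1.89. The nascent level of Apoa4 was 28 RPKM in GW4064 livers and 107 RPKM in KO vehicle livers. A pair of nuclear non-coding RNAs lay low on the ratio scale. Malat1, which is retained in nuclear speckles, had 107 and 102 RPKM in total RNA against 340 RPKM in nascent RNA, and Neat1, the scaffold of paraspeckles, had 64.8 and 60.9 RPKM against 265 RPKM, with centred log2 ratios of -2.13 and -2.50. The 12 ranked non-coding RNAs of this list that are not named as host genes had a median centred log2 ratio of -0.59. None was higher and 2 (16.7%) were lower, beside 5.92% and 2.77% of all ranked genes. The median nascent rank of these 12 was 77.0 points, which leaves little room for a higher call.

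Enzymes of bile acid synthesis lay near the top of both rankings, where little room is left for a higher call. Their median rank was 93.0 points in total RNA and 95.4 points in nascent RNA. None of 15 ranked genes was higher or lower, beside 5.92% and 2.77% of all ranked genes, and their median difference was -1.86 points. Cyp7a1, the rate-limiting enzyme of the classical pathway, had 13.8 and 16.4 RPKM in total RNA against 14.4 RPKM in nascent RNA. Its difference was 9.96 points in GW4064 livers, where nascent Cyp7a1 was at 3.83 RPKM, against -0.42 points in vehicle livers. Cyp8b1, which makes the precursor of cholic acid, had 83.8 and 76.0 RPKM against 31.9 RPKM in nascent RNA, and Cyp7b1, of the alternative pathway, had 4.14 and 5.26 RPKM against 9.07 RPKM (-14.8 points). None of 16 bile acid and organic anion transporter genes was called, with a median of -1.99 points. Their median nascent rank was 90.1 points, so little room was left for a higher call there too.

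Genes of cholesterol synthesis and uptake lay above their nascent rank as a group. All 22 ranked genes lay above 0, 3 (13.6%) were higher and none lower, beside 5.92% and 2.77% of all ranked genes, and the median was 12.7 points. The 3 were Pmvk, which phosphorylates mevalonate phosphate (1.70 and 1.58 RPKM in total RNA against 0.357 RPKM in nascent RNA, 34.6 points), Hsd17b7 (3.58 and 3.31 RPKM against 1.15 RPKM, 32.9 points) and Cyp51, the sterol demethylase (1.85 and 2.00 RPKM against 0.620 RPKM, 31.2 points). In GW4064 livers the median was 14.4 points, whereas with the KO vehicle library as nascent RNA it was -3.86 points. Cyp51 had 1.34 RPKM in that KO library, and its difference there was -3.57 points. The direction of this list in vehicle livers thus depends on the GRO-seq library used.

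Genes of fatty acid synthesis were mixed, with 2 (9.09%) higher and 1 (4.55%) lower of 22 ranked, beside 5.92% and 2.77% of all ranked genes. Their median was 2.15 points. Fasn, fatty acid synthase, had 8.30 and 9.08 RPKM in total RNA against 2.00 RPKM in nascent RNA (28.1 points). Acaca, the acetyl-CoA carboxylase that feeds it, had 1.11 and 1.18 RPKM in total RNA against 1.57 RPKM in nascent RNA (-30.4 points) in a row of 206213 bases, against 18589 bases for Fasn. Thrsp, a regulator of lipogenesis, had 4.09 and 4.33 RPKM in total RNA and 1.05 RPKM in nascent RNA (43.2 points). In GW4064 livers, where nascent Thrsp was at 26.7 RPKM, its difference was 0.81 points. Srebf1, the transcription factor of lipogenesis, lay at 40.5 points in GW4064 and 36.2 points in vehicle livers.

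Fasting, glucose and amino acid genes mostly stayed near 0. Of 36 genes of fatty acid oxidation and ketogenesis 2 were higher and none lower, one of them Fgf21, a hormone induced by fasting (7.58 and 4.27 RPKM in total RNA against 1.06 RPKM in nascent RNA, 52.1 points). The 28 genes of glucose and glycogen metabolism had 1 higher and 1 lower. The lower gene was Gbe1, the glycogen branching enzyme, at 2.14 and 2.49 RPKM in total RNA against 4.15 RPKM in nascent RNA (-32.2 points). The 33 genes of the urea cycle and amino acid breakdown had 1 higher and a median of 0.28 points. Median nascent ranks were 89.2 points for fatty acid oxidation, 83.2 for glucose and 96.8 for amino acid breakdown. Such ranks leave little room for a higher call. Among 30 ranked P450 genes of families 1 to 3, 1 (3.33%) was higher and 3 lower, and among 42 conjugation enzymes 5 (11.9%) were higher and none lower, beside 5.92% higher and 2.77% lower over all ranked genes.

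Of the 5 higher conjugation enzymes 4 belong to the Gstm family of glutathione S-transferases, which attach glutathione to reactive compounds. Of the 7 Gstm genes in the table, a set chosen after the values were seen, 5 (71.4%) were higher, beside 5.92% of all ranked genes. Their median was 38.4 points. In GW4064 livers 3 of the 7 were higher with a median of 16.4 points, the KO vehicle library gave a median of 5.43 points, and within length classes 2 were higher with a median of 20.4 points. Gstm7 had 3.38 and 3.72 RPKM in total RNA against 0.641 RPKM in nascent RNA (57.0 points), and Gstm6 had 4.0 and 4.42 RPKM against 0.864 RPKM (51.7 points). Gstm1, the most abundant member, had 13.3 and 13.1 RPKM in total RNA against 17 RPKM in nascent RNA (-1.73 points), and Gstm3 lay at -0.34 points. The Gstm genes resemble each other in sequence, and how the authors' counting shared reads between them is not given in the sources used here. The same holds for the major urinary proteins, of which 18 were ranked with 3 (16.7%, beside 5.92% of all ranked genes) higher and none lower. Their median was 0.80 points in GW4064 livers and -5.19 points with the KO vehicle library, against 4.46 points with the WT vehicle library.

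Acute phase and stress genes held some of the highest differences and no common direction. Of 23 ranked acute phase and inflammation genes 4 (17.4%) were higher and none lower, beside 5.92% and 2.77% of all ranked genes, and the median was -0.06 points. Saa1 had 14.5 and 5.59 RPKM in total RNA against 1.22 RPKM in nascent RNA (53.5 points), and Cd14, a receptor for bacterial lipopolysaccharide, had 3.94 and 2.72 RPKM against 0.524 RPKM (60.3 points). In GW4064 livers the differences were 10.9 points for Saa1 and 7.91 points for Cd14. Hamp, which encodes the iron hormone hepcidin, had 15.3 and 15.4 RPKM in total RNA against 56.1 RPKM in nascent RNA, a difference of -2.38 points. None of 12 metallothionein and iron storage genes was called, with a median of 0.68 points. The median nascent rank of these 12 was 95.5 points, which leaves little room for a higher call. Of 33 heat shock and unfolded protein response genes 3 (9.09%) were higher and none lower.

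Immediate early and labile transcripts, known for their short lives, did not separate from other genes by rank when length was left aside. Of 52 ranked genes of this list 2 were higher and 1, Cish, was lower, with a median of 0.04 points. The rows of this list were short, with a median of 3771 bases. Within length classes the median was -3.01 points with none higher and 3 lower, beside 2.96% and 3.08% of all genes. Within classes of exonic share the median was -3.38 points. Myc had 1.34 and 0.922 RPKM in total RNA against 1.60 RPKM in nascent RNA, a difference of -31.9 points that missed 25 points with library 1 at -24.7. Gadd45b, a stress-induced growth arrest gene, had 4.35 and 4.21 RPKM in total RNA against 1.30 RPKM in nascent RNA (34.1 points), and 1.15 points in GW4064 livers, where nascent Gadd45b was at 13.9 RPKM. The 42 ranked nuclear receptor and liver transcription factor genes had a median of -4.90 points with 1 higher and 1 lower, and 251 genes of the zinc finger family named Zfp had a median of -6.26 points with 7 higher (2.79%) and 9 lower (3.59%), beside 5.92% and 2.77% of all ranked genes.

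Circadian clock genes lay below their nascent rank, with a spread that followed the library. The median of 17 ranked genes was -8.63 points, 5 lay above 0 and none was called, and within length classes the median was -1.22 points. Per3, a period repressor, had 0.613 and 1.49 RPKM in total RNA against 1.46 RPKM in nascent RNA, which gave -46.1 points with library 1 and -15.9 points with library 2. Dbp, a clock output factor, had 2.27 and 6.79 RPKM against 5.31 RPKM, or -37.1 and -1.62 points. Arntl, which activates the period genes and peaks at the other end of the day, had 1.40 and 0.735 RPKM in total RNA and 0.590 RPKM in nascent RNA, or 18.5 and -4.80 points. Library 1 was thus lower for Per3 and Dbp and higher for Arntl than library 2, and the time of day at which each mouse was sampled is not given in the sources used here.

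Histone genes, whose messenger RNAs lack introns and in replicating cells a poly(A) tail, were scattered. Of 42 ranked 3 (7.14%) were higher and 5 (11.9%) lower, beside 5.92% and 2.77% of all ranked genes, with a median of 2.89 points. In GW4064 livers 10 were higher and 4 lower with a median of 15.5 points, beside 5.52% and 2.61% of all genes ranked there. Hist1h4k had 2.82 and 3.66 RPKM in total RNA against 0.173 RPKM in nascent RNA, and Hist1h2ab had 0.854 and 0.847 RPKM against 2.38 RPKM (17 reads). The labels and the study's methods name different kits, one of them for poly(A) RNA after removal of ribosomal RNA, and whether RNA without a poly(A) tail was recovered in full was not tested.

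**Figure D4:**
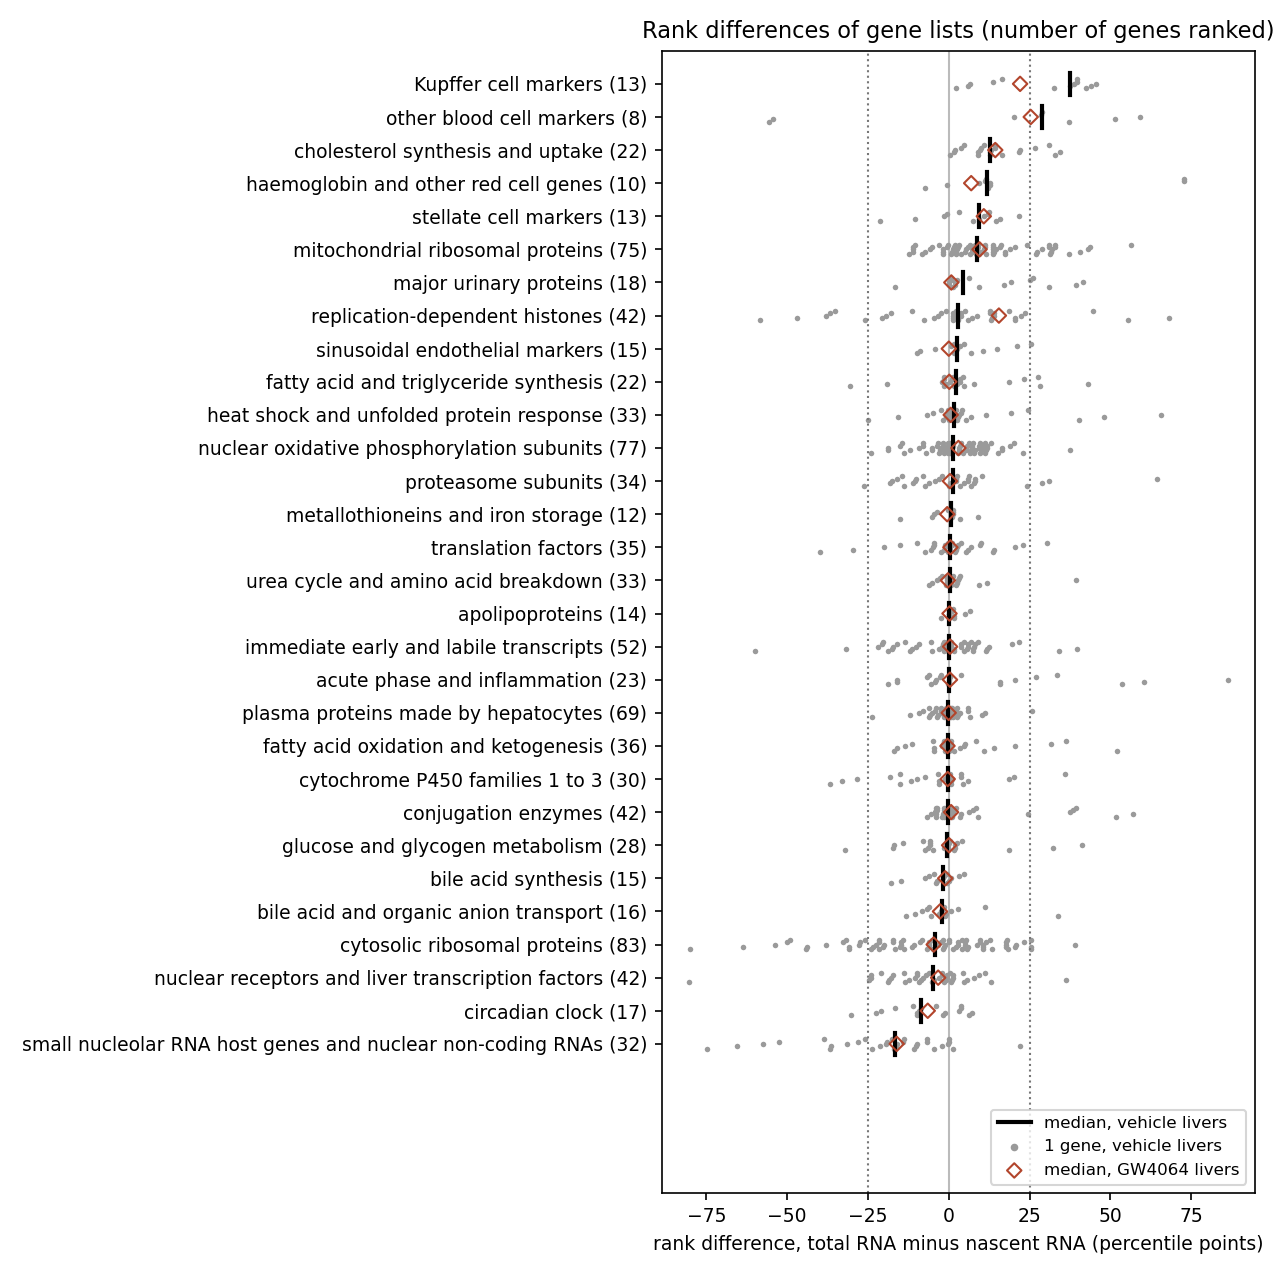
Rank difference in percentile points (horizontal axis) of the genes of each list with at least 5 ranked genes (vertical axis, number ranked in brackets), leaving out the lists added later. Grey points are genes and black bars medians in vehicle livers, diamonds are medians in GW4064 livers, and dotted lines mark 25 points. In vehicle livers Kupffer cell markers have the highest median, 37.4 points (22.1 points in GW4064 livers, where other blood cell markers are at 25.4 points), and host genes of small nucleolar RNAs with nuclear non-coding RNAs the lowest, -16.7 points.

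The length of the gene went with the rank difference throughout. The row length was equal to end minus start in 24932 rows of the deposited values, so that a value averages exons and introns, and finished RNA without introns is spread over the length of the whole gene. Across genes the Spearman coefficient of the rank difference was -0.495 with row length and 0.454 with the exonic share of the row. Over 10 equal classes of length, the shortest class ran from 324 to 3190 bases. Its median difference was 6.86 points, and 19% of genes were higher and 7.52% lower. In the longest class, from 84765 to 985903 bases, the median was -13.5 points, with 0.0940% higher and 5.64% lower.

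The genes called higher were short, whereas those called lower were close to all genes in median length but more common at both ends of the length range. Quartiles of row length were 3057.5 and 68716.5 bases for the lower genes, against 7177.5 and 39648.8 bases over all ranked genes. The 629 higher genes had a median row of 4711 bases, with 47.7% of it exonic, and the 295 lower genes one of 16778 bases, with 20.6% exonic, against 17370.5 bases and 21.6% over all ranked genes. Genes of a single exon were common in both directions, at 12.7% of the higher and 11.3% of the lower genes, against 4.16% of all. Overlap with another row was found for 18.6% of the higher and 37.6% of the lower genes and 24.6% of all. Non-coding genes made up 3.50% of the higher genes (22) and a larger share of the lower genes (59 of 295), against 5.62% of all. The median number of nascent reads was 60 for the higher and 579 for the lower genes.

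The longest genes among those lower in total RNA were Plcb1, a phospholipase of receptor signalling, Slc25a21, a mitochondrial carrier, and Gphn, which encodes gephyrin. Plcb1, in a row of 689094 bases, had 1.05 and 1.26 RPKM in total RNA against 1.56 RPKM in nascent RNA, and Gphn, at 458114 bases, 2.85 and 2.93 RPKM against 5.99 RPKM. Among the higher genes Abhd2, a lipid hydrolase, was the longest at 88335 bases, with 2.13 and 1.80 RPKM in total RNA against 0.665 RPKM in nascent RNA (30.2 points). With the KO vehicle library, where Abhd2 had 2.09 RPKM, its difference was -21.8 points. Ranked within length classes 315 genes (2.96%) were higher and 327 (3.08%) lower. These included 252 of the 629 genes and 193 of the 295 genes called without regard to length, and none in the opposite direction.

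**Figure D5:**
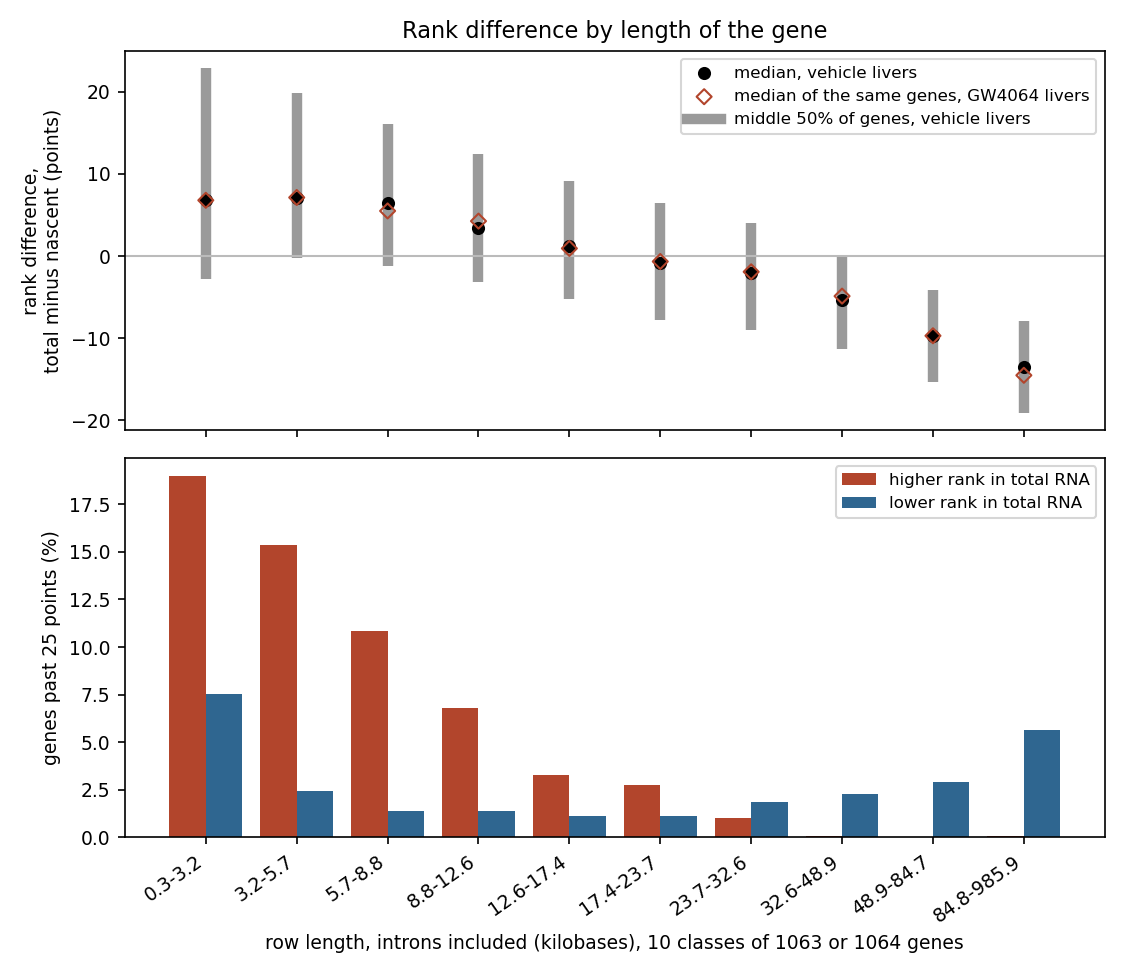
Upper panel, rank difference in percentile points for 10 classes of row length, with the median in vehicle livers (black), the middle 50% of genes (grey bars) and the median of the same genes in GW4064 livers (diamonds). Lower panel, percentage of genes in each class that were higher or lower in total RNA by 25 points or more. The median was 6.86 points in the shortest class, where 19% of genes were higher, and -13.5 points in the longest, where 0.0940% were.

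The GW4064 set gave a second reading from other libraries, with the same assays and gene models. In it 10547 genes were ranked, of which 582 (5.52%) were higher in total RNA and 275 (2.61%) lower, and the rank differences of the vehicle and GW4064 sets had a Spearman coefficient of 0.877 over 10365 genes. Of the 629 genes higher in vehicle livers 406 (64.5%) were higher in GW4064 livers, none was lower, and 624 lay above 0, with a median of 31.3 points in GW4064 livers and 35.1 points in vehicle livers. Of the 288 lower genes that were ranked in both sets 130 (45.1%) were lower in GW4064 livers, none was higher and 282 lay below 0. Genes that were neither in vehicle livers were higher in GW4064 livers in 1.86% of cases and lower in 1.40%. GW4064 itself changes some of these genes, so that the sets are not repeats of one condition.

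The list of small nucleolar RNA host genes and nuclear non-coding RNAs had 32 ranked genes. None was higher and 10 (31.25%) were lower, beside 5.92% and 2.77% of all ranked genes. The median nascent rank of the list was 93.5 points, which leaves little room for a higher call. Within length classes the median of this list was -26.5 points with 16 lower. List medians of the second set were close to the first for most lists. Host genes of small nucleolar RNAs with nuclear non-coding RNAs lay at -16.1 points in GW4064 livers and -16.7 points in vehicle livers, mitochondrial ribosomal proteins at 9.52 and 8.74 points, and Kupffer cell markers at 22.1 and 37.4 points. Taking the KO vehicle library as nascent RNA, which leaves the total RNA libraries the same, gave -15.6, 8.43 and 17.6 points for these lists. The marker sums in nascent RNA were 16.8 RPKM in GW4064 livers and 17.1 RPKM in KO vehicle livers for Kupffer cells, against 13.8 RPKM in WT vehicle livers.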

How the data were processed

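The RPKM values were computed by the authors, who mapped reads to mm10 and counted them over gene rows. STAR 2.7.3a, HOMER, bcl2fastq and FastQC are named in the submitters' processing notes, and the strand setting of the counting is not given in the sources used here. Rows span introns. Library totals were rebuilt from the values, and reads computed with them were whole (to 0.15) in 100% of the cells tested. Reads per base in the densest row reached 3.97 to 4.45 in the RNA-seq libraries (Rpph1) and 14.9 to 23.3 in the GRO-seq libraries (Rn45s). The study's methods name a kit for poly(A) RNA after removal of ribosomal RNA, and the labels name another kit.

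Genes with rows of at least 300 bases and a mean of at least 0.5 RPKM were ranked with Python 3.11.15, numpy 2.4.6, pandas 2.3.3 and scipy 1.17.1, and plots were drawn with matplotlib 3.10.9. The ranking, the calls and the rebuilding of library totals were checked on simulated data, and the small RNA steps were not. Differences are percentile ranks in total RNA minus those in nascent RNA, called at 25 points with each RNA-seq library, and ratios had 0.1 RPKM added. No test was made. Exact 95% Poisson intervals and the 3-read floor cover counting error only. Exon and small RNA annotation is from GENCODE M21, matched for 98.0% of ranked genes.

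Genes named are the 15 largest and 15 smallest called differences (predicted genes, clones and overlapping rows left out), the 3 at each end of each gene list, all members of the red cell, metallothionein and iron, apolipoprotein, bile acid synthesis and clock lists, and the 3 longest and shortest called genes. Genes named beyond this rule were chosen after their values were seen. Members and all 33 lists were chosen with earlier results of these data known, 2 of them (interferon and antigen presentation, neutrophil granules) and the splits of lists after seeing these values. Alternatives covered the filters, row length, length classes, overlapping rows, the 25-point limit, each library, the added RPKM and the KO nascent library. The KO GW4064 GRO-seq library was not used in a comparison.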

Additional observations from a re-analysis of the deposited data

Results flagged for a closer look

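Smad9 differed between the treatments. Its rank in total RNA was above its rank in nascent RNA by 11.9 points in GW4064 livers (3.26 points with library 1 and 19.97 points with library 2), against -51.2 points in vehicle livers, with both RNA-seq libraries on the same side within each treatment. The nascent level was 0.374 RPKM in GW4064 livers and 2.36 RPKM in vehicle livers, each from 1 library. The difference between treatments was not tested.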

How the results depend on the processing

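No paired analysis was possible because no result comes from a test and the GRO-seq libraries carry no replicate number. Counts are given as higher and lower, for vehicle and then GW4064 livers, and the reported values are 629 and 295, 582 and 275, 75 and 59 genes at 4-fold, a coefficient of 0.846, and medians of 6.86 and -13.5 points in the shortest and longest of 10 length classes. A filter of 0.1 RPKM gave 380 and 123, 365 and 139, a coefficient of 0.914, and medians of 3.97 and -7.92. A filter of 1 RPKM gave 756 and 552, 484 lower in GW4064 livers, 0.770, and medians of 9.15 and -18.8. No filter gave 139 and 152, 154 and 139, 204 genes 4-fold above, 0.960, and medians of 0.56 and -2.49. Every row length gave 256 and 232 genes at 4-fold, 0.787 and a shortest-class median of 5.69, and rows of at least 1000 bases a coefficient of 0.849. Ranks within length classes gave 315 and 252 higher. Without overlapping rows 24 genes were 4-fold below, with medians of 8.39 and -14.6. At 40 points the counts were 154 and 54, and 128 and 48. Leaving out a vehicle RNA-seq library gave 751 to 769 higher and 417 to 429 lower, 78 to 80 genes 4-fold above and 63 to 67 below, coefficients of 0.838 to 0.839, and medians of 6.48 to 6.74 and -13.5 to -13.4. Leaving out a GW4064 RNA-seq library gave 665 to 775 higher and 366 to 460 lower. With 0.01 RPKM added 118 genes were 4-fold above, and with 1 RPKM added 10 were above and 32 below.

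The KO vehicle library as nascent RNA gave 516 higher and 268 lower, 97 genes 4-fold below, a coefficient of 0.857 and a longest-class median of -11.5. It turned 7 named genes: Abhd2 (-21.8 points), Cyp51 (-3.57), Gadd45b (-7.63), Mup1 (-1.34), Mup16 (-17.8), Mup19 (-6.99) and S100a9 (1.09). In every other setting the called named genes that could be given a value, 75 to 94 of 94, had the same direction. The next 3 settings were chosen after seeing the data. Classes of exonic share gave 418 and 333 higher. Without rows under 20 GRO-seq reads 27 genes were 4-fold above, with 0.856 and a shortest-class median of 5.44. With the nascent value at its nearer 95% counting limit the counts were 258 and 158, with 15 genes 4-fold above. Of the 33 list medians 9 changed sign within length classes and 6 with the KO library. No setting called a gene in the opposite direction to the reported call. Apart from these constructions (fewer or more genes ranked, another limit or library) the cause of a shift was not tested. Low nascent counts limit the higher genes, 87 of which rest on under 20 reads.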
